A study of Homo sapiens with 16 samples.

Results

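A set of 10 genes of mitotic kinases and anaphase regulators were followed in irradiated cells of A549, a line established from a human lung adenocarcinoma. They were chosen by name, with earlier results of these data known: PLK1, AURKA, AURKB, BUB1, BUB1B, TTK, NEK2, CDC20, PTTG1 and UBE2C. In the annotation used here 9 of the 10 had an array feature, and these 9 genes held 11 of 45220 features and made up 9 of the 18334 named genes. UBE2C was not analysed here. PLK1 and NEK2 had 2 features each, which were averaged, and the other genes had 1 each. The Entrez identifiers are 5347 for PLK1, 6790 for AURKA, 9212 for AURKB, 699 for BUB1, 701 for BUB1B, 7272 for TTK, 4751 for NEK2, 991 for CDC20 and 9232 for PTTG1.

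The 16 arrays fell into 4 groups of 4: C12 4h and C12 1h, harvested 4 or 1 h after carbon ions, and X-ray 4h and X-ray 1h, harvested 4 or 1 h after X-rays. The C12 plates lay in a spread-out Bragg peak 10 mm wide, with a linear energy transfer given as 50 and 70 keV/µm, and the X-ray plates in a 6 MV beam at 3 Gy/min. Each array set the RNA of irradiated plates against that of unirradiated control plates of the same cultures, in Cy3 and Cy5 with dye swaps. Per the labels the cultures were independent and the RNA of 2 experiments was pooled for each hybridisation. Whether arrays of a group shared cultures could not be told here, so n below counts arrays. No control plate was shared between groups. No dose is stated in the labels. The files held ratios and no signal intensities, so whether the line's own markers were expressed could not be checked, and the number of arrays was the only available guide to precision.

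The direction of these ratios was not settled. As deposited, C12 arrays whose irradiated plate carried the same labelled dye correlated over all features down to r = -0.87, so the labelled dye alone did not set the sign. Replicates 1 and 2 of each group were therefore multiplied by -1, and the result was read as likely irradiated over control. The reading rests on CDKN1A, which encodes the p53-induced cyclin-dependent kinase inhibitor p21. On the turned scale its log2 ratios were 2.09, 1.10, 1.29 and 1.31 on X-ray 4h replicates 1 to 4 and 1.19, 0.91, 1.04 and 0.96 on X-ray 1h replicates 1 to 4. They were 0.92, 1.65, 0.51 and 1.41 on the C12 4h arrays and -0.35, 0.63, -0.46 and 0.43 on the C12 1h arrays. On this scale C12 arrays with opposite labelled dyes still correlated over all features at a median r of -0.83, so the turn did not bring the C12 arrays together. With all signs opposite, each lower value below is a higher value of the same size. Under 2 other readings the X-ray 4h values were also smaller and no gene passed: PLK1 was at -0.09 and AURKA at 0.03 with ratios turned by the labelled dye, and at -0.20 and -0.17 with ratios as deposited. With the labelled dye 4 of the 9 genes were below 0 at X-ray 4h, with a median of 0.03.

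Cells enter mitosis and build a spindle through a set of kinases. PLK1 drives mitotic entry, centrosome maturation and spindle assembly, AURKA acts at centrosomes and spindle poles, AURKB is the catalytic subunit of the chromosomal passenger complex, and NEK2 separates the duplicated centrosomes. The spindle assembly checkpoint, run by TTK, BUB1 and BUB1B, delays anaphase until chromosomes are attached. It does so by holding back CDC20, the activator of the anaphase-promoting complex (APC/C), the ubiquitin ligase that marks securin, the product of PTTG1, and cyclin B for destruction. UBE2C is the E2 enzyme that works with this ligase. After DNA damage, cells that arrest in G2 hold these kinases inactive, and p53 through p21 is known to lower transcription of many G2 and M phase genes through cell cycle elements in their promoters.

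Promoter sequences are shown for 4 genes that differed on 1 array, X-ray 4h replicate 2: PLK1 and CDC20, which were below 0 on all 4 X-ray 4h arrays, and BUB1B and NEK2, which were above 0 on that replicate. The sequences are the 250 bases before the annotated start in RefSeq, build GRCh38.p14, written 5′ to 3′ on the gene's strand. Capitals mark matches on either strand to letters of cell cycle homology region elements, which were searched as TTTGAA, as its close variant TTCGAA and as the palindrome TTTAAA, and to the letters of the NF-Y box, searched as CCAAT. The windows are chr16:23678639-23678888 on the plus strand for PLK1, chr1:43358731-43358980 on the plus strand for CDC20, chr15:40160819-40161068 on the plus strand for BUB1B and chr1:211675622-211675871 on the minus strand for NEK2.
PLK1: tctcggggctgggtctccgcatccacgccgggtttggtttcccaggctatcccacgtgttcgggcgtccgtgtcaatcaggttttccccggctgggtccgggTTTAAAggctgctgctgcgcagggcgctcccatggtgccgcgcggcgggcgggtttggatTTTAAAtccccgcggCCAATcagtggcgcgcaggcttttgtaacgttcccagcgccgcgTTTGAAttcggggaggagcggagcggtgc
CDC20: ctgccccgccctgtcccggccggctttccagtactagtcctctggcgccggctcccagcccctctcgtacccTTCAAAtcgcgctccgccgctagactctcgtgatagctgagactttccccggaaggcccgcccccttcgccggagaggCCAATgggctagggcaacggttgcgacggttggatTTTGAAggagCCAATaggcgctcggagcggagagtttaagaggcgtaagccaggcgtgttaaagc
BUB1B: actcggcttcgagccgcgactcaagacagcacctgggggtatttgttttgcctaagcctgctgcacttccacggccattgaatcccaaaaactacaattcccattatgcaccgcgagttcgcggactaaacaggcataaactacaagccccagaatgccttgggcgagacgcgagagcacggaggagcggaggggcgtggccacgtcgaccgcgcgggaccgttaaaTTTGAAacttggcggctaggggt
NEK2: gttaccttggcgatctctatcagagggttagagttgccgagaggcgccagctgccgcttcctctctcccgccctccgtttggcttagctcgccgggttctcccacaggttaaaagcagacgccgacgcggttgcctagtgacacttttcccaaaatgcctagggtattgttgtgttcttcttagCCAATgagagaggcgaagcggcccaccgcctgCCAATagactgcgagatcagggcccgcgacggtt

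PLK1 held TTTAAA at positions -148 and -88, CCAAT at -73 and TTTGAA at -29, counted to the first base of the match from the start site. CDC20 held TTTGAA at -178 and -65 and CCAAT at -100 and -55. BUB1B held TTTGAA at -23 and no CCAAT, and NEK2 held CCAAT at -66 and -34 and none of the six-base letters. In windows that also took in the 50 bases after the start, 7 of the genes had an entry (PLK1, AURKB, BUB1, BUB1B, NEK2, CDC20 and PTTG1). Of these, 5 held at least 1 of the six-base motifs, 6 held CCAAT and 4 held both. The genes with printed sequences do not stand for the rest. BUB1, above 0 on X-ray 4h replicate 2, held TTCGAA and CCAAT. AURKB, below 0 on all 4 X-ray 4h arrays, held CCAAT and none of the six-base motifs. PTTG1, below 0 on replicate 2, held TTTAAA and CCAAT. Over the 35116 promoters of the table, windows of the same length held TTTGAA in 15.2%, TTCGAA in 1.45%, TTTAAA in 12.2%, any of these in 25.1%, CCAAT in 34.6% and both kinds in 9.7%. A match is a description of the letters and not evidence that a factor binds.

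X-ray 4h is the comparison that asks what the radiation changed against unirradiated plates of the same cultures. There PLK1 and AURKA were lower on the turned scale. PLK1 was 1.81-fold lower and AURKA 1.67-fold lower. The other 7 genes did not pass the test, but all 9 fitted values were below 0. Their median was -0.61 on the log2 scale, against 0.00073 for all genes. Of the 9 genes, 2 passed limma's adjusted p of 0.05, both lower, against 0.567% of all genes in either direction and 0.0436% that were lower. At an unadjusted p under 0.05, 8 of the 9 were lower, against 2.24% of all genes. Since the genes were chosen with earlier results of these data known, these shares describe the set and do not test it. With only the X-ray arrays PLK1 kept its call (limma adjusted p = 0.0428) and AURKA did not (0.188). In that fit 41 of 18334 genes passed.

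Among the spindle kinases, PLK1 had log2 ratios of -0.46, -0.85, -1.07 and -1.04 on X-ray 4h replicates 1 to 4. All 4 arrays were below 0, and on replicates 2, 3 and 4 the gene lay at the 0.289, 0.196 and 0.3 percentile of all genes, against the 9.46 percentile on replicate 1. The fitted log2 ratio was -0.86 ± 0.15 (SE, n = 4; 95% interval -1.18 to -0.54, limma adjusted p = 0.0107). The features of PLK1 agreed in sign on all of these arrays, as did those of NEK2.

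AURKA had log2 ratios of -0.43, -0.71, -1.10 and -0.72 on the same arrays. It too was below 0 on every array, with replicate 1 nearest to 0. The fitted value was -0.74 ± 0.16 (SE, n = 4; 95% interval -1.08 to -0.40, limma adjusted p = 0.0424). AURKB had log2 ratios of -0.31, -0.21, -0.76 and -0.93, lower on replicates 3 and 4 than on 1 and 2. Its fitted value was -0.55 ± 0.18 (SE, n = 4; limma adjusted p = 0.368).

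NEK2 had log2 ratios of -0.81, 0.30, -0.70 and -1.22. Replicate 2 was above 0 and the other arrays were at least 0.70 below it on the log2 scale. The fitted value was -0.61 ± 0.21 (SE, n = 4; limma adjusted p = 0.396), and the SD over the arrays was 0.65, against 0.28 for PLK1 and 0.27 for AURKA.

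The checkpoint genes split along the same array. BUB1, the kinase that marks centromeres and recruits other checkpoint proteins, had log2 ratios of -0.74, 0.33, -0.87 and 0.06, so it was below 0 on replicates 1 and 3 and not on 2 and 4. Its fitted value of -0.31 ± 0.19 (SE, n = 4; limma adjusted p = 0.862) had a 95% interval of -0.71 to 0.10. BUB1B, which encodes BUBR1 of the mitotic checkpoint complex, had log2 ratios of -0.55, 0.09, -1.04 and -1.01. Its fitted value was -0.63 ± 0.18 (SE, n = 4; limma adjusted p = 0.224). TTK, which encodes the checkpoint kinase MPS1, had log2 ratios of -0.93, 0.37, -0.63 and -0.41 and a fitted value of -0.40 ± 0.17 (SE, n = 4; limma adjusted p = 0.677). All 3 checkpoint genes and NEK2 were above 0 on replicate 2.

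At the APC/C, CDC20 had log2 ratios of -0.41, -0.84, -0.94 and -0.78, below 0 on every array. Its fitted value was -0.74 ± 0.17 (SE, n = 4; 95% interval -1.09 to -0.39, limma adjusted p = 0.0522), as far from 0 as AURKA's and just outside the threshold. PTTG1, securin, had log2 ratios of 0.58, -0.74, -0.996 and -0.18. It was above 0 on replicate 1 and lowest on replicates 2 and 3, which carried the irradiated plate in Cy3, and its fitted value was -0.34 ± 0.14 (SE, n = 4; limma adjusted p = 0.639). PTTG1 was also the only one of the 9 genes whose X-ray dye coefficient passed, at 0.63 (limma adjusted p = 0.000101). That coefficient came from a fit over the C12 and X-ray arrays together, with a dye coefficient for each kind of radiation. PTTG2, a near-identical copy, had log2 ratios of -0.37, -0.07, -0.62 and -0.91, and how far the 2 features share signal is uncertain.

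**Figure D1:**
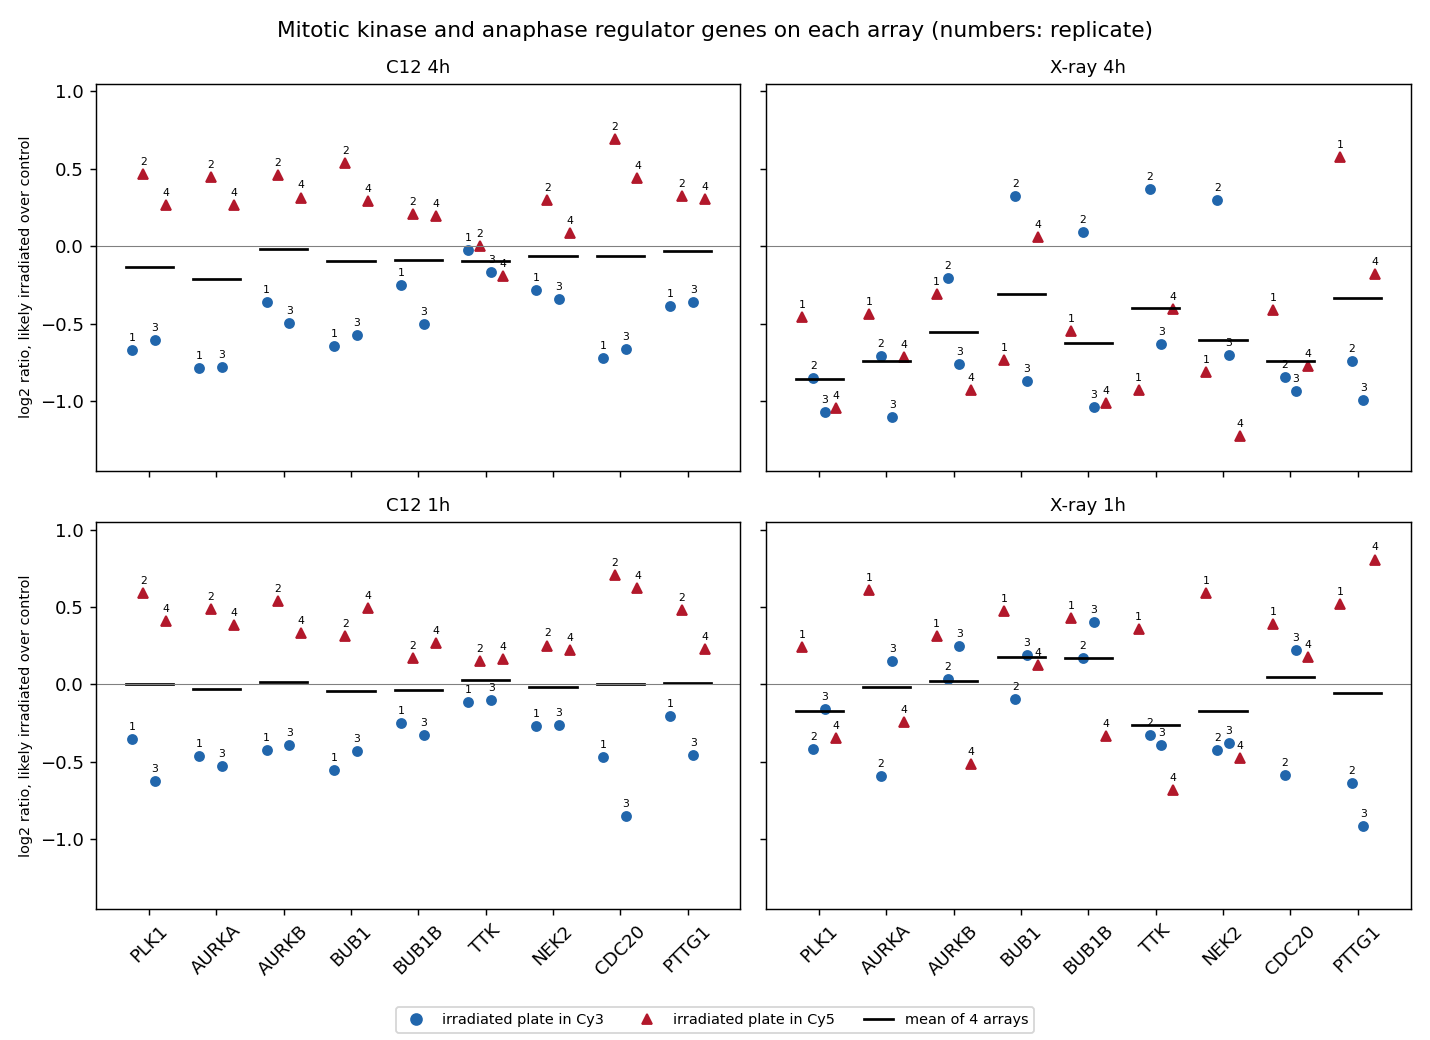
Log2 ratio (y axis) of each of the 9 measured genes (x axis) on every array, with a panel for each group, replicate numbers beside the points, blue circles for irradiated plates in Cy3, red triangles for Cy5 and black bars for the mean of 4 arrays. In the X-ray 4h panel PLK1, AURKA, AURKB and CDC20 lie below 0 on all 4 arrays, while in both C12 panels nearly all Cy3 points lie below 0 and nearly all Cy5 points above it.

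Over all genes, replicate 2 stood apart from the other 3 X-ray 4h arrays. All 4 X-ray 4h arrays were below 0 for 4 genes, PLK1, AURKA, AURKB and CDC20, against 2.9% of all genes. The number of the 9 genes below 0 was 8, 5, 9 and 8 on replicates 1 to 4. On replicate 2 the genes spread from -0.85 for PLK1 to 0.37 for TTK. Over all genes replicate 2 correlated with replicates 1, 3 and 4 at r = -0.24, -0.17 and -0.15, whereas replicates 1 and 4 correlated at 0.40 and replicate 3 with replicates 1 and 4 at 0.02 and -0.02. No pair other than 1 and 4 was clearly alike over all genes, and replicate 2 was the only one of the 4 below 0 against each of the rest. Across the 9 genes alone the order differed: replicates 2 and 3 had the highest r, 0.71. There replicate 1 correlated with replicates 2, 3 and 4 at -0.65, -0.47 and 0.24, and replicate 4 with replicates 2 and 3 at 0.12 and 0.04.

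Without replicate 2, 8 of the 9 genes passed as lower in limma, against 6.19% of all genes that were lower in that fit. The log2 values were -0.97 for PLK1, -0.88 for AURKA, -0.73 for AURKB, -0.97 for NEK2, -0.63 for BUB1, -0.91 for BUB1B, -0.68 for TTK and -0.86 for CDC20. Their limma adjusted p-values lay between 0.00487 for PLK1 and 0.0296 for AURKB, with n = 3. PTTG1 did not pass (limma adjusted p = 0.199). The array was left out because its values differ, so the larger count holds for this fit only. Of the arrays kept, replicates 1 and 4 carried the irradiated plate in Cy5 and replicate 3 in Cy3. The fitted values therefore include part of the dye coefficient shared with the C12 arrays and are not plain means of the 3 arrays. Fitted per radiation quality, the median absolute dye coefficient over all genes was 0.33 on C12 and 0.10 on X-ray arrays.

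Other arrays decided the calls as well. PLK1 kept its call in 14 of the 16 fits that left out 1 array, and lost it without X-ray 4h replicate 3 (limma adjusted p = 0.0849) or replicate 4 (0.0815). AURKA kept its call in 3 of the 16 fits, those without X-ray 4h replicate 2 or X-ray 1h replicate 3 or 4, with limma adjusted p-values between 0.00754 and 0.241. CDC20 gained a call without X-ray 4h replicate 2, X-ray 1h replicate 3 or C12 1h replicate 3. The fitted log2 values stayed between -0.97 and -0.68 for PLK1 and between -0.88 and -0.62 for AURKA. Where an X-ray 4h array was left out, these values also include part of the shared dye coefficient. With a dye coefficient fitted for each radiation quality, 5 of the 9 genes passed as lower, against 0.18% of all genes: PLK1, AURKA, CDC20, AURKB (limma adjusted p = 0.0485) and BUB1B (0.047). That fit shares each gene's spread between the qualities, while the mean residual SD was 0.112 on C12 and 0.272 on X-ray arrays. Its SEs may therefore be too small for the X-ray arrays. With only the X-ray arrays AURKB (limma adjusted p = 0.587) and BUB1B (0.528) did not pass, and neither did CDC20 (0.108).

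**Figure D2:**
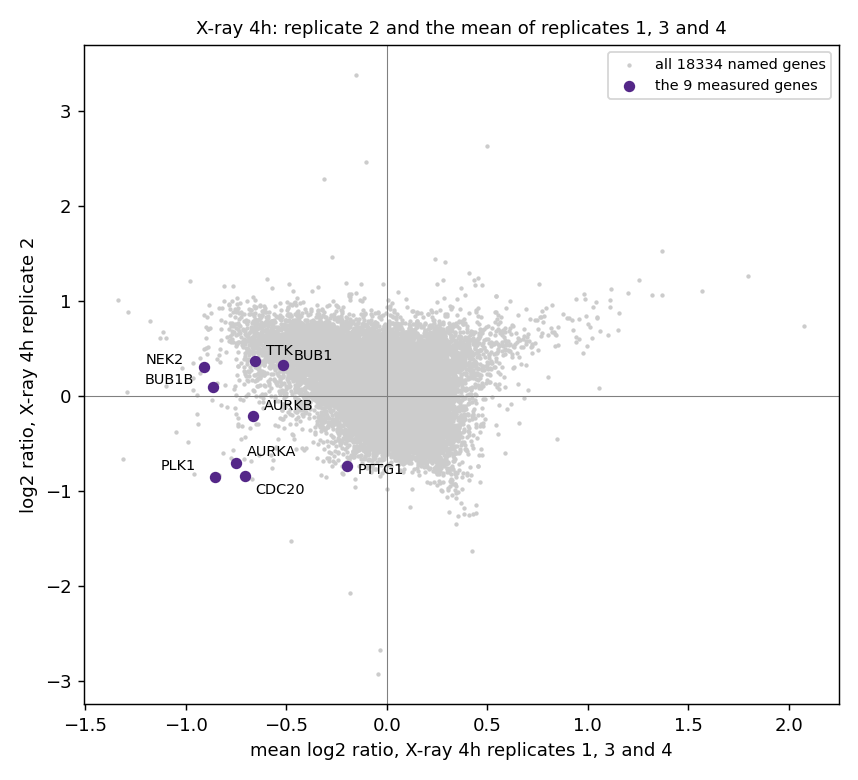
Log2 ratio on X-ray 4h replicate 2 (y axis) against the mean log2 ratio of X-ray 4h replicates 1, 3 and 4 (x axis), in grey for all named genes and in purple for the 9 measured genes. All 9 lie left of 0, but BUB1, BUB1B, TTK and NEK2 lie above 0 on replicate 2 while PLK1, AURKA, AURKB, CDC20 and PTTG1 lie below it.

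At 1 h after X-rays none of the 9 genes passed the test, against 0.0491% of all genes. In limma 0 of them also had an unadjusted p under 0.05, against 2.57% of all genes. The fitted log2 ratios ran from -0.26 ± 0.17 for TTK to 0.18 ± 0.19 for BUB1 (SE, n = 4; limma adjusted p = 1.00 for each), with a median of -0.02. PLK1 had log2 ratios of 0.24, -0.42, -0.16 and -0.35, AURKA 0.61, -0.59, 0.15 and -0.24 and CDC20 0.39, -0.58, 0.22 and 0.18 on replicates 1 to 4. Replicate 1 was above 0 for all 9 genes and replicate 2 below 0 for 7 of them, so the arrays had no common sign. PTTG1 varied most, with log2 ratios of 0.52, -0.63, -0.91 and 0.81. The features of PLK1 differed in sign on replicates 3 and 4, where 1 feature read -0.58 and -0.71 and the other 0.26 and 0.02.

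The change between the times was tested directly in the X-ray arms. None of the 9 genes passed for X-ray 4h minus X-ray 1h, against 0% of all genes in limma. All 9 differences were below 0, with a median of -0.57 against 0.00895 for all genes, and 5 had an unadjusted p under 0.05, against 3.52% of all genes. The differences furthest from 0 were -0.80 ± 0.26 for BUB1B, -0.79 ± 0.23 for CDC20, -0.72 ± 0.23 for AURKA and -0.69 ± 0.22 for PLK1 (SE, n = 4 each; limma adjusted p = 1.00 for each). Only PLK1 had all its 4h arrays below all its 1h arrays, a separation found in 0.262% of all genes, and that was by a narrow margin, -0.46 against -0.42. Without X-ray 4h replicate 2, AURKA (-0.86, limma adjusted p = 0.0494), BUB1 (-0.81, 0.0479) and BUB1B (-1.08, 0.0183) passed, against 2.83% of all genes that were lower in that fit. That array was left out for its values, and the X-ray 4h arrays kept were unequal in dye. These differences therefore also include part of the dye coefficient shared with the C12 arrays.

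After carbon ions none of the 9 genes passed at 4 h, against 0.0109% of all genes, or at 1 h, against 0% of all genes. In limma 0 of the 9 had an unadjusted p under 0.05 at either time, against 0.24% of all genes at 4 h and 0.158% at 1 h. The C12 4h values were all slightly below 0, from -0.21 ± 0.16 for AURKA and -0.14 ± 0.15 for PLK1 to -0.02 ± 0.18 for AURKB (SE, n = 4; limma adjusted p = 1.00 for each). Their median was -0.09, against 0.00466 for all genes. At C12 1h the values ran from -0.04 to 0.03, and 4 of the 9 were below 0. The main fit shares 1 spread per gene and 1 dye coefficient with the X-ray arrays. With only the C12 arrays AURKA at C12 4h was -0.21 ± 0.06 (SE, n = 4; limma unadjusted p = 0.00344, adjusted p = 0.612). There 1 of the 9 genes had an unadjusted p under 0.05 in limma, against 825 of 18334 genes. At C12 1h 0 of the 9 had one, against 679 of 18334 genes.

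The small C12 means came from arrays of opposite sign. PLK1 had log2 ratios of -0.67, 0.47, -0.61 and 0.27 on C12 4h replicates 1 to 4 and -0.35, 0.59, -0.62 and 0.41 on C12 1h replicates 1 to 4. CDC20, the most widely spread, had -0.72, 0.70, -0.66 and 0.44 at C12 4h and -0.47, 0.71, -0.85 and 0.63 at C12 1h. AURKA had -0.79, 0.45, -0.78 and 0.26 at C12 4h and -0.46, 0.49, -0.53 and 0.38 at C12 1h. Replicates 1 and 3, whose irradiated plate was labelled Cy3, were below 0 and replicates 2 and 4, labelled Cy5, above it.

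Counted over the 9 genes, 36 of 36 values on the Cy3 arrays of C12 were below 0 (median -0.42) and 1 of 36 on the Cy5 arrays (median 0.31). On the X-ray arrays the same counts were 25 of 36 and 22 of 36. The pattern was not particular to these genes. All but TTK were below 0 on every Cy3 and above 0 on every Cy5 array of C12, as were 44.2% of all genes, and 83.2% of all genes had C12 arrays that separated by dye one way or the other, against 8.53% on the X-ray arrays. The mean of 17 housekeeping genes alternated too, at -0.38, 0.51, -0.45 and 0.37 on C12 4h replicates 1 to 4.

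A dye coefficient was fitted for each radiation quality over the C12 and X-ray arrays together, with each gene's spread shared between them. The C12 coefficient was 0.65 for CDC20, 0.52 for AURKA, 0.50 for PLK1 and 0.48 for BUB1. It was 0.41 for AURKB, 0.34 for PTTG1 and 0.27 for BUB1B, and each of these had a limma adjusted p under the threshold. The C12 coefficient did not pass for NEK2 (0.25, limma adjusted p = 0.0943) or TTK (0.07, 0.618), whereas 71.1% of all genes passed. The residual SD of NEK2 was 0.055 on C12 and 0.495 on X-ray arrays, and that of TTK 0.090 and 0.424. With the spread shared, these 2 results cannot show that the C12 arrays lacked a dye difference. TTK's C12 4h ratios were -0.02, 0.00, -0.17 and -0.19. Each C12 group held both dye orientations equally often, so the group means rest on 2 arrays of each sign.

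If the C12 ratios were instead turned by the dye code that orders the X-ray arrays, a reading chosen after seeing the data, their sign would rarely alternate. With the dye term kept, 5 of the 9 genes would then pass as higher at C12 4h, against 24.9% of all genes (24% without the dye term). They are PLK1 (0.50), AURKA (0.57), AURKB (0.41), BUB1 (0.51) and CDC20 (0.63). The same 5 would pass at C12 1h, against 25.3% of all genes (24.4% without the dye term), at values such as 0.47 for AURKA and 0.45 for BUB1, and 6 of the 9 would pass as higher for C12 4h minus X-ray 4h, against 3.9% of all genes (3.51% without the dye term). The counts of the 9 genes were the same without the dye term. On that reading CDKN1A, all 4 of whose C12 4h ratios were above 0 on the first reading, would read -0.92, 1.65, -0.51 and 1.41 on C12 4h replicates 1 to 4, a sign that alternates with the dye, and 0.35, 0.63, 0.46 and 0.43 on the C12 1h arrays. The files do not settle which reading holds.

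**Figure D3:**
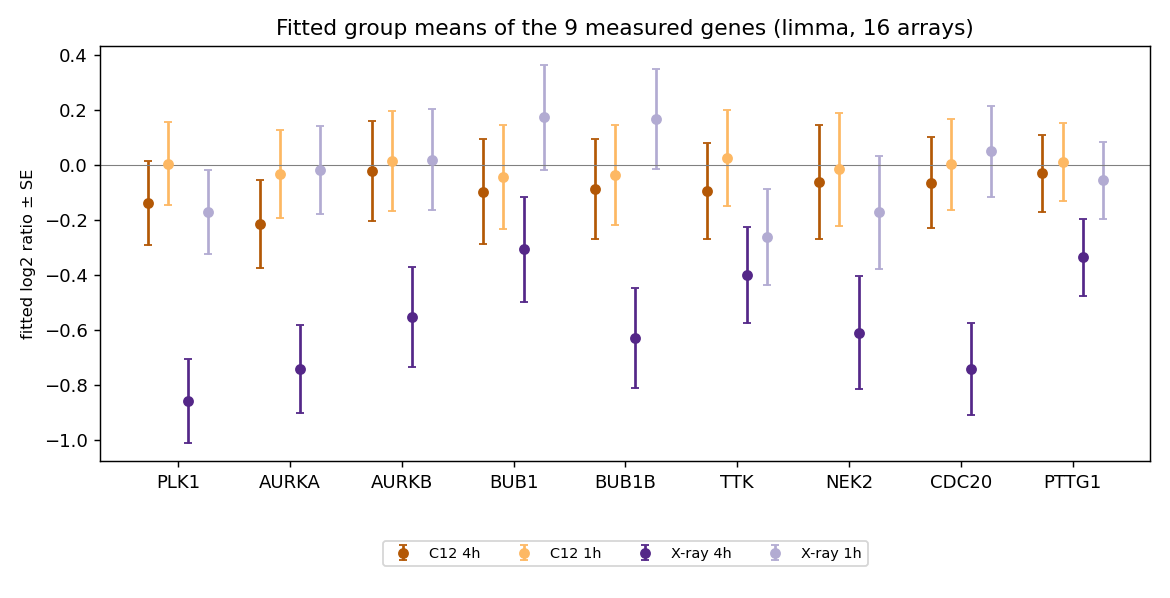
Fitted log2 ratio with its SE (y axis) of the 9 measured genes (x axis) in C12 4h, C12 1h, X-ray 4h and X-ray 1h, from the limma fit over 16 arrays. The X-ray 4h points run from -0.86 for PLK1 to -0.31 for BUB1, and the points of the other 3 groups lie between -0.26 and 0.18.

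The radiation qualities were compared directly within each time. None of the 9 genes passed for C12 4h minus X-ray 4h, against 0% of all genes in limma. All 9 differences were above 0, with a median of 0.53 against 0.00130 for all genes, and 4 had an unadjusted p under 0.05 (PLK1, AURKA, BUB1B and CDC20), against 1.79% of all genes. PLK1 averaged -0.14 ± 0.59 on C12 4h arrays and -0.86 ± 0.28 on X-ray 4h arrays (SD, n = 4 each), a difference of 0.72 ± 0.22 with a 95% interval of 0.27 to 1.17 (SE; limma adjusted p = 1.00). CDC20 averaged -0.06 ± 0.74 and -0.74 ± 0.23 on C12 4h and X-ray 4h arrays (SD, n = 4 each), a difference of 0.68 ± 0.23 (SE; limma adjusted p = 1.00). For all 9 genes the C12 4h and X-ray 4h arrays overlapped, while 0.191% of all genes had every C12 4h array above every X-ray 4h array.

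The interval of the difference for BUB1, -0.36 to 0.78, covered 0 and also values above 0.5. At 1 h the C12 minus X-ray differences ran from -0.22 for BUB1 to 0.29 for TTK, with a median of -0.01, and none of the 9 passed, against 0% of all genes; 0 had an unadjusted p under 0.05 in limma, against 0.796% of all genes. C12 4h minus C12 1h was below 0 for all 9 genes, with a median of -0.05 and values of -0.18 ± 0.23 for AURKA and -0.14 ± 0.22 for PLK1 (SE, n = 4 each), and none passed, against 0% of all genes. In limma 0 of these had an unadjusted p under 0.05, against 0.131% of all genes. With same-numbered C12 arrays taken as pairs, AURKA was at -0.18 ± 0.07 (SE, 4 pairs; limma adjusted p = 1.00) and again none passed.

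The 9 genes varied together over the arrays, to unequal degrees. Over the 16 arrays the 36 pairwise correlations ran from -0.00 to 0.96 with a median of 0.69, and over the 8 X-ray arrays from -0.17 to 0.96 with a median of 0.59. The 16 arrays share the dye alternation of C12, so these values are descriptions only. Ranked by Pearson's r with the mean of the 9 genes over 16 arrays, the most alike of all other genes were TPX2 (r = 0.97), which targets and activates AURKA at the spindle, KIF20A (0.95), a kinesin of the central spindle, CCNA2 (0.95), which encodes cyclin A, CDCA8 (0.95), a chromosomal passenger subunit, KIF2C (0.95), a microtubule-depolymerising kinesin, PIMREG (0.94), SLBP (0.94), which binds the stem-loop of histone mRNAs, and ZNF639 (0.93). Over the 8 X-ray arrays alone their r lay between 0.88 for ZNF639 and 0.96 for TPX2.

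Around the 9 genes, lists of their partners were followed at X-ray 4h. Over all genes 0.567% passed and 49.7% were below 0 in this comparison. Of 15 checkpoint and kinetochore partners none passed and 12 were below 0, with a median log2 ratio of -0.36. Examples are KNL1, the kinetochore scaffold that binds BUB1 (-0.36 ± 0.10), NDC80, which holds the microtubule (-0.51 ± 0.15), SPC25 of the same complex (-0.61 ± 0.19) and MAD2L1, which binds CDC20 (-0.69 ± 0.31), with limma adjusted p-values of 0.209, 0.225, 0.296 and 0.707 (SE, n = 4 each).

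Among 21 kinase partners and relatives, 2 passed and both were higher: PLK3 and PLK2, stress-responsive relatives of PLK1. PLK3 had log2 ratios of 1.41, 1.06, 1.41 and 1.28 on X-ray 4h replicates 1 to 4 and rose by 1.29 ± 0.20 (SE, n = 4; limma adjusted p = 0.00319). PLK2 had 0.73, 0.78, 0.89 and 0.72 and rose by 0.78 ± 0.16 (SE, n = 4; limma adjusted p = 0.025). On the same 4 arrays, replicate 2 included, PLK1 was below 0 and PLK2 and PLK3 above it. PLK3 also rose at X-ray 1h, by 1.59 ± 0.20 (SE, n = 4; limma adjusted p = 0.0026). The list's median was -0.12, with BORA, the activator of AURKA towards PLK1, at -0.71 ± 0.17 (limma adjusted p = 0.0851), SGO2, which protects centromeric cohesion, at -0.64 ± 0.16 (0.121) and CDCA8 at -0.86 ± 0.24 (0.192) (SE, n = 4 each).

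All 12 genes of securin, separase and cohesin were below 0 with a median of -0.20, none passing; RAD21, the cohesin subunit that separase cuts, was at -0.35 ± 0.16 (SE, n = 4; limma adjusted p = 0.707). Of 17 APC/C subunits and regulators none passed and 13 were below 0, with a median of -0.13. They include UBE2S, the chain-elongating E2 enzyme (-0.46 ± 0.16, limma adjusted p = 0.426), and FBXO5, an APC/C inhibitor (-0.50 ± 0.23, 0.730) (SE, n = 4 each). Of 17 regulators of G2 and M phase transcription only CDKN1A passed, the gene by which the direction was read, at 1.45 ± 0.14 (SE, n = 4; limma adjusted p = 8.19e-05), and 10 were below 0 with a median of -0.07.

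Of 17 housekeeping genes and 15 markers of fibroblasts, endothelium and immune cells none passed, with medians of 0.01 and -0.02. The housekeeping mean was 0.24, 0.12, -0.50 and 0.15 on X-ray 4h replicates 1 to 4, so replicate 3, where the 9 genes were lowest, was also low for these genes. Without replicate 3 the fitted median of the 9 genes was -0.53, with none called. PLK1 was fitted there at -0.89, which includes part of the shared dye coefficient, since the arrays kept were unequal in dye. Its own log2 ratios on replicates 1, 2 and 4 were -0.46, -0.85 and -1.04. With every array centred on its median the fitted median of the 9 genes was -0.62, with 3 called. In the C12 groups no gene of these lists passed other than CDKN1A at C12 4h, at 1.12 ± 0.14 (SE, n = 4; limma adjusted p = 0.00769). In RNA from whole plates, fewer cells in mitosis and less of these transcripts per cell cannot be told apart.

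**Figure D4:**
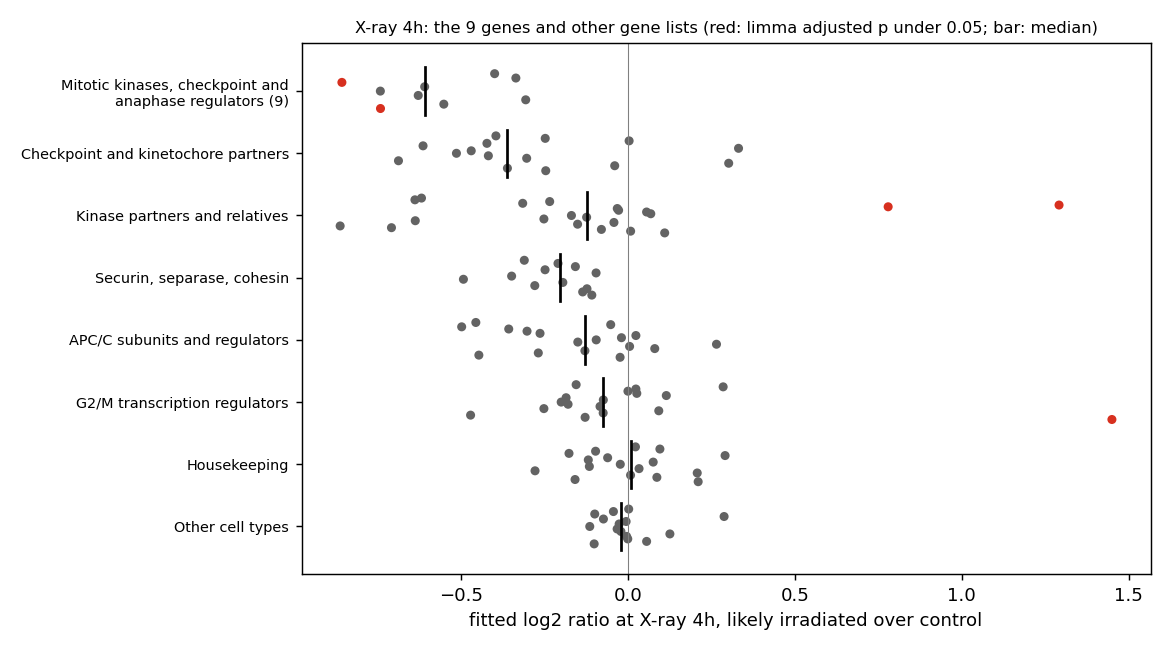
Fitted log2 ratio at X-ray 4h (x axis) of every measured gene in the 9-gene set and in the lists around it (rows), in red where limma's adjusted p passed 0.05, with a bar at each median. The 9 genes have the lowest median, -0.61, and the red points are PLK1 and AURKA on the left and PLK2, PLK3 and CDKN1A on the right.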

How the data were processed

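RNA of irradiated and control A549 plates was hybridised together on 16 Agilent arrays, 4 per group. The deposited values are log2 ratios per feature, normalized by the authors with limma, per the submitters' processing notes; base 2 is taken from limma's usual output, and the background correction is not given in the sources used here. All 16 arrays had the same SD (0.414), medians between -0.042 and -0.039, and no missing value. An equal SD is what arrays scaled to a common spread would show. The fold values given here are therefore on the deposited scale and may differ from the true sizes.

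Here 31332 features with 1 gene symbol were averaged to 18334 genes, with replicates 1 and 2 of each group multiplied by -1; 13795 features had no symbol and 93 had several. limma 3.58.1 in R 4.3.3 was fitted to all 16 arrays, with 4 group means and 1 dye coefficient, then eBayes and Benjamini-Hochberg adjustment over all genes (threshold 0.05); it was tested on simulated data. Alternatives varied the direction, dye term, arrays, centring, weights and averaging. Replicate numbers were read as independent cultures. Because RNA of 2 experiments was pooled per hybridisation, arrays of a group may share cultures. In that case the SEs and p-values would be too small. Same-numbered arrays deviated together in 14 of 24 pairs (r over 0.1), among them all 4 of C12 4h with C12 1h (r 0.875 to 0.905). Those C12 arrays share a dye, and other-numbered C12 arrays of the same dye had r 0.888 to 0.912. After the dye coefficient, r was -0.312 to -0.136 for same-numbered arrays and -0.256 to -0.042 for other-numbered arrays of the same dye. Fitting the dye coefficient itself pulls r between same-dye arrays below 0, so that sign cannot decide on pairing. The main fit has no pairs, and a paired fit is an alternative. The 9 genes were named in every comparison, list genes where they passed or had the smallest p, and the 8 genes most alike by r. Genes and lists were chosen with earlier results of these data known. Promoters came from RefSeq, GRCh38.p14.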

Additional observations from a re-analysis of the deposited data

Results flagged for a closer look

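Of the 36 sets of 4 arrays (9 genes in 4 groups), 1 held an array far from the other 3, and chance alone marks about 1 in 20 such sets. NEK2, the centrosome-separating kinase, read 0.59 on X-ray 1h replicate 1, against -0.42, -0.38 and -0.48 on replicates 2 to 4. The gap to the nearest array was 0.904 of the whole range, above Dixon's critical value for 4 arrays at 95%. All 9 genes were above 0 on that array, and the housekeeping mean there was 0.58.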

How the results depend on the processing

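Calls among the 9 genes moved at X-ray 4h under several settings, at X-ray 4h minus 1h when 1 array was left out, and in 3 C12 comparisons when the C12 ratios were turned. At X-ray 4h 2 of the 9 were called. The count was 0 without the dye term, where the values were the same (PLK1 -0.86, AURKA -0.74), and 0 with array weights, where they were further from 0 (PLK1 -0.99, AURKA -0.90; replicate 2 had weight 0.0837). It was 1 with only the X-ray arrays and 5 with a dye coefficient per quality or with C12 turned. It was 0 as deposited (PLK1 -0.20, AURKA -0.17) and 0 turned by the labelled dye, where the values themselves were small or above 0: PLK1 -0.09, AURKB -0.02, CDC20 -0.07, PTTG1 -0.13, AURKA 0.027 (limma adjusted p = 0.999, a reversal), NEK2 0.15, BUB1B 0.17, TTK 0.38 and BUB1 0.50. Leaving out 1 array gave 0 to 8 called genes there, 0 to 3 for X-ray 4h minus 1h and 0 to 0 in every other comparison.

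The count over all genes at X-ray 4h (104) was 0 turned by the labelled dye, 0 as deposited, 21 without the dye term, 221 with dye per quality, 41 with only the X-ray arrays, 2 with array weights, 201 with C12 turned (202 with the dye term), and 15 to 1322 without 1 array. At X-ray 1h (9) it was 0 for the labelled dye, 0 as deposited, 0 without the dye term, 16 with dye per quality and 1 with only the groups compared, and 3 to 10 without 1 array. At C12 4h (2) it was 0, 0 and 0 for the labelled dye, as deposited and without the dye term, 26 with only the groups compared, 4 with only C12 arrays, 1 centred, 14 with array weights, 1 with the median of features and 0 to 2 without 1 array. C12 1h (0) gave 0 to 0 without 1 array.

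Among differences (0 each), the 4 h contrast of C12 with X-ray gave 0 to 0 without 1 array, and the 1 h contrast 6 with dye per quality, 2 with only the groups compared, 4 with C12 turned (5 with the dye term) and 0 to 1 without 1 array. C12 4h minus 1h gave 2 with only the groups compared, 2 with only C12 arrays, 3 with weights and 0 to 0 without 1 array. X-ray 4h minus 1h gave 3 with dye per quality, 1 with the replicate block, 1 with C12 turned (3 with the dye term) and 0 to 563 without 1 array. With the replicate block (correlation 0.131) 2 of the 9 genes were called at X-ray 4h, PLK1 (limma adjusted p = 0.0106) and AURKA (0.0494), and 102 genes in all; it changed no other call of the 9. Pairing same-numbered arrays within a quality, an alternative added after seeing the data, called 0 genes in limma for C12 4h minus 1h (815 at an unadjusted p under 0.05) and 0 for X-ray 4h minus 1h (509).

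Turning the C12 ratios by the X-ray dye code without a dye term, chosen after seeing the data, called 5 of the 9 genes at C12 4h, 5 at C12 1h and 6 in the 4 h contrast of the qualities; over all genes the counts were 8355, 8432 and 966. With the dye term the counts were 5, 5 and 6 of the 9 and, over all genes, 8672, 8725 and 1063. It reversed PLK1 (0.50), AURKA (0.57), AURKB (0.41), BUB1 (0.51) and CDC20 (0.63) at C12 4h and AURKA (0.47) and BUB1 (0.45) at C12 1h. The causes were not tested. Of 2016 recomputed values of the 9 genes, 1830 had the same sign, among them 40 that newly passed and 23 that no longer did. The other 186 changed sign, of which 171 passed in neither fit. With 4 arrays per group and no intensities, precision is limited by the number of arrays.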
